A study of Arabidopsis thaliana with 3 samples.

Results

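The regions described here are 268 short stretches of Helitron transposons near the centromeres of Arabidopsis thaliana, out of 4481 distinct regions of differential DNA methylation over which 24-nt small RNAs were counted. They were chosen by annotation and position alone: every repeat listed for the region had to bear an ATREP name other than ATREP18, and its midpoint had to lie at most 3 Mb from the midpoint of a centromere. No small RNA value entered the choice. Small RNAs of total RNA were sequenced from whole seedlings grown in vitro for 10 days, in 1 library each of ddb2-3 (line DsLoxHs195_05H), nrpd1a (Salk_583051) and WT (Col). The labels give 1 allele per mutant and no number of pooled plants. DDB2 is the damage-binding protein that starts global genome repair of ultraviolet lesions, and NRPD1 is the main catalytic subunit of RNA polymerase IV (Pol IV). The study concerns repair factors and the DNA methylation landscape. Set against WT, ddb2-3 addresses whether siRNAs change when DDB2 is lost, and nrpd1a shows what is left when Pol IV is lost. With 1 library per genotype no difference has a replicate check, and every interval given here is an exact 95% interval for counting error only.

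Helitrons are DNA transposons that move by rolling-circle replication, and the ATREP families are short Arabidopsis copies that encode no transposase of their own and depend on larger relatives. That ATREP names mark Helitrons is background knowledge, since the deposited regions carry the repeat name without its superfamily. In RNA-directed DNA methylation, Pol IV transcribes such repeats, RDR2 makes the transcripts double-stranded, DCL3 cuts them into 24-nt siRNAs, and AGO4 carries these to Pol V transcripts, where DRM2 methylates cytosines in every context. CG, CHG and CHH name the sequence context of the cytosine, H being A, C or T. CHH methylation has no copying signal on the opposite strand, so short repeats depend most on siRNAs for it, while long heterochromatic elements also use CMT2. A region called CHH-hyper or CHG-hypo gained or lost methylation in that context, but which genotypes were compared to define it is not given in the sources used here.

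The sequences show what these regions are made of. All are read from the forward strand of TAIR10 as held in RefSeq. The ATREP2 family had the lowest sum ratio among the families of at least 10 regions, and a pair of its regions shares a run of 63 bases, in capitals, which occurs at 2 places in the genome and in no other of the 4481 regions (0.0446% hold it, both strands searched).
ATREP2 chr5:13231901-13232000: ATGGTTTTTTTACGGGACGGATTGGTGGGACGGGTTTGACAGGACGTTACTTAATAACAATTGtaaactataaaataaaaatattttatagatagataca
ATREP2 chr1:12240701-12240800: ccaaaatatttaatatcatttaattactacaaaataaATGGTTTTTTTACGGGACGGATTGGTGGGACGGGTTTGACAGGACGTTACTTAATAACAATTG
A 24-nt read inside such a run could come from either copy or from another place with the same 24 bases. Over the whole region, flank included, the median 24-base word occurs at 22 places for chromosome 5 and at 3 for chromosome 1. How the authors counted reads with several genomic places is not given in the sources used here. The region with the highest WT level belongs to ATREP5. Capitals mark its bases that lie in 24-base words found once in the genome, and 32.5% of its 24-base words are of that kind.
ATREP5 chr1:16968101-16968200: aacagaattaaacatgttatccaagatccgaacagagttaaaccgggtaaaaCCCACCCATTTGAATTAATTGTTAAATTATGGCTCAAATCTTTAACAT
A pair of ATREP10D regions of the hypo classes had among the lowest ddb2-3 levels relative to WT. Capitals mark their CG dinucleotides, of which the first has 2 and the second 3.
ATREP10D chr4:5701601-5701800: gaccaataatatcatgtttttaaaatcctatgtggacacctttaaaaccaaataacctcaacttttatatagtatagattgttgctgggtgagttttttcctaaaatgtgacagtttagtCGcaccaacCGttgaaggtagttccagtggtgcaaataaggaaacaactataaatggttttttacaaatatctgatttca
ATREP10D chr2:666688-666798: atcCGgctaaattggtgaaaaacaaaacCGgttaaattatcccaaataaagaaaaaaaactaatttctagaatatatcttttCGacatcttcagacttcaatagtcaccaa

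Few cytosines stand in these repeats. The median region had a GC content of 26%, against 36.4% over all 4481 regions and 44% over the 1222 Gypsy retrotransposon regions near the centromeres. The 630 ATREP regions of the arms were alike, with 25%. Per 100 bases the median region near the centromeres held 2.0 CG, 2.45 CHG and 20 CHH cytosines, both strands counted. Over all regions these were 4.0, 5.0 and 25.5, and over the ATREP regions of the arms 2.67, 2.29 and 18. A run of GA or TC dinucleotides of at least 12 bases stood in 1 of the 268. Widths ran from 53 to 400 bp, and 207 regions were 100 bp wide.

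The 268 regions came from 214 annotated elements of 23 family labels. ATREP3 was the largest family, with 83 regions in 54 elements, followed by ATREP10D with 27, ATREP11 with 19, ATREP5 and ATREP15 with 16 each, ATREP7 with 15, ATREP1 and ATREP2 with 14 each, and ATREP2A and ATREP13 with 10 each. The other 44 regions belonged to 13 smaller labels, one of which joins ATREP10B and ATREP8 in the same region. CHH-hyper alone was the class of 144 regions (53.7%), CHH-hypo alone of 66, CHG-hyper alone of 23 and CHG-hypo alone of 19. CG-hypo alone held 5 regions, none was CG-hyper, and 11 regions were listed in 2 classes. Chromosomes 1 to 5 held 59, 62, 36, 50 and 61 regions. In the gene annotation 195 regions (72.8%) lay within 2 kb of a gene, 101 upstream and 94 downstream, 64 were intergenic and 9 (3.36%) lay in a gene, against 41.3% in a gene over all regions.

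Levels are given as deposited, in RPM, the reads of a region relative to the size of the library. The values were whole multiples of 1 read, worth 0.120 RPM in ddb2-3, 0.727 RPM in nrpd1a and 0.169 RPM in WT. The total that the RPM were scaled to was thus by far the smallest in nrpd1a. Which reads that total counts is not given in the sources used here. The 268 regions held 39930 reads in ddb2-3, 126 in nrpd1a and 28877 in WT, which is 0.478%, 0.00916% and 0.488% of the normalising totals. Of the 268 regions 6 pairs overlapped, and their shared reads count in each. The mean level per region was 17.9 RPM in ddb2-3, 0.342 RPM in nrpd1a and 18.2 RPM in WT, and the medians were 7.49, 0 and 7.36 RPM. In ddb2-3 the regions ran from 0.120 to 259.9 RPM and in WT from 0.169 to 265.5 RPM. The ddb2-3 and WT levels thus lay close together over the whole range, while nearly all of the signal was missing from nrpd1a. In the 5 regions just inside the 3 Mb limit the WT level was 2.54 to 13.2 RPM, and in the 5 just outside 2.20 to 104 RPM.

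**Figure D1:**
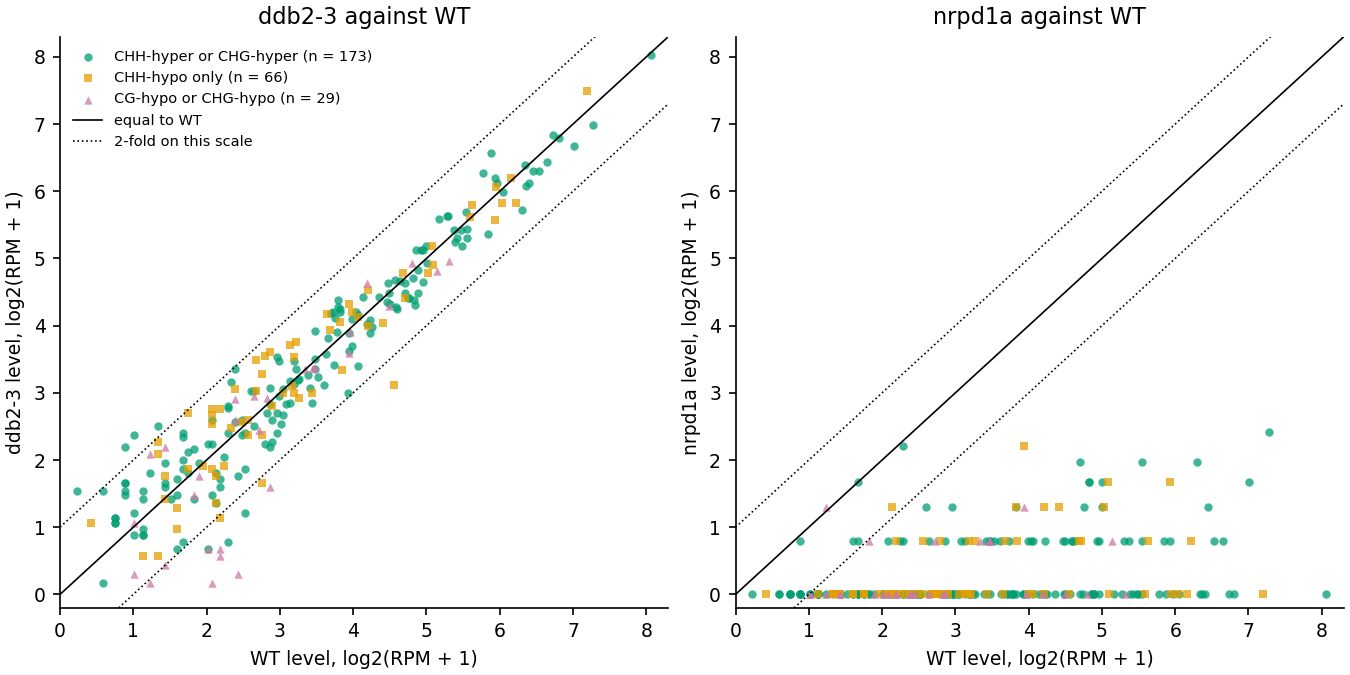
Each point is 1 of the 268 regions, with its WT level on the horizontal axis and its level in ddb2-3 (left) or nrpd1a (right) on the vertical axis, all as log2(RPM + 1); the solid line marks equal levels and the dotted lines a 2-fold difference on that scale. In ddb2-3 the points follow the solid line, with 13 regions 2-fold or more below WT and 4 above, and in nrpd1a 191 regions lie at 0.

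Summed over all 268 regions, the ddb2-3 level was 0.980 of WT (0.965 to 0.995), a log2 ratio of -0.029 (-0.051 to -0.0076). The ddb2-3 level was above WT in 128 of 268 regions (47.8%), against 63.4% of all 4481 regions. The median log2 ratio, on the log2(RPM + 1) scale, was -0.041 with quartiles of -0.31 and 0.31, against a median of 0.17 over all regions. Over the 4462 regions with reads in both libraries the median log2 ratio of ddb2-3 to WT was 0.20, and relative to that median region the sum of the Helitron regions lay at -0.23. Across the 268 regions the ddb2-3 and WT levels had a Pearson r of 0.95 on the log2(RPM + 1) scale, a description of 2 libraries over regions that share families and sequence.

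The Helitron regions near the centromeres sat beside the regions of the arms, ATREP or not, rather than beside their neighbours. The 630 ATREP regions of the arms had a mean of 29.9 RPM in ddb2-3 and 31.2 RPM in WT, a log2 ratio of summed levels of -0.063 (-0.074 to -0.052). The 1183 regions of the arms outside ATREP lay close by, with 20.4 RPM in ddb2-3, 21.0 RPM in WT and a ratio of -0.039 (-0.048 to -0.029). Gypsy retrotransposons near the centromeres had 21.2 RPM in ddb2-3 and 15.1 RPM in WT, a ratio of 0.48 (0.47 to 0.49). The 1178 remaining regions near the centromeres had 16.8 RPM in ddb2-3 and 15.0 RPM in WT, a ratio of 0.17 (0.16 to 0.18). Among these were 103 regions with a HELITRON name, the larger relatives, with 11.3 RPM in ddb2-3 and 10.2 RPM in WT and a ratio of 0.14 (0.096 to 0.19). Relative to the median region the sums were -0.23 for the 268 regions, -0.26 for ATREP on the arms, -0.24 for the others on the arms, 0.28 for Gypsy, -0.032 for the remaining regions and -0.057 for the HELITRON-named ones, so the last 2 change sign. The intervals of both other sets near the centromeres, and of the HELITRON-named one, did not reach that of the 268 regions, but regions are not replicates and the difference between the sets was not tested over samples. By position within the window, the sums were -0.015 (-0.080 to 0.049) for the 29 regions within 1 Mb of the centromere midpoint, -0.0013 (-0.037 to 0.035) for the 96 at 1 to 2 Mb and -0.053 (-0.083 to -0.022) for the 143 at 2 to 3 Mb, the sole interval of the 3 that lay below 0. Within 2 Mb the sum was -0.0047 (-0.036 to 0.027), the median 0.068, and 6 of the 13 regions at least 2-fold lower remained. By chromosome the sums ran from -0.098 (-0.14 to -0.057) on chromosome 1 to 0.024 (-0.018 to 0.066) on chromosome 5.

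Counted by size, 4 regions were at least 2-fold higher in ddb2-3 (1.50% of 267 with at least 1 RPM in a library), where 5.22% of all regions were, and 13 were at least 2-fold lower (4.87%), where 1.67% of all regions were. After the shift of the median region was subtracted from each log2 difference, 3 were higher and 17 lower, against 2.68% and 2.61% of all regions. An exact binomial test on whole reads, adjusted over all regions by the Benjamini-Hochberg method at 0.05, compares these libraries and not the genotypes. It called 25 regions higher and 31 lower, against 19.3% and 7.03% of all regions. By each count, lower regions made up a larger share and higher regions a smaller share than over all regions. The ATREP regions of the arms leaned the same way, so this is not particular to the regions near the centromeres. By size 0.794% of those 630 were at least 2-fold higher and 2.86% lower, and the binomial test called 57 higher and 89 lower.

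The 13 lower regions were weakly covered and mostly of the hypo classes. Their WT level ran from 1.35 to 22.5 RPM, with 12 of them under 10 RPM, and 10 of the 13 were CG-hypo, CHG-hypo or CHH-hypo. The same held over the whole series, where 62 of the 75 regions at least 2-fold lower were of a hypo class. ATREP10D supplied 6 of them, in 5 elements. In 11 of the 13 at least 50% of the 24-base words occur once in the genome, and 11 had no read in nrpd1a. Both traits are common among weakly covered regions. The 103 of the 268 regions under 5 RPM in WT, which hold 10 of the 13, had a median of 80.5% unique words. Of these 103 regions 87.4% had no nrpd1a read. Apart from the ATREP12 and ATREP3 regions with the 2 highest WT levels, these regions and the 4 higher ones are named because of their values and not by the rule for named regions.

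An ATREP12 region, chr1:12517301-12517462, had the highest WT level of the 13. This CHH-hypo region lies 746 bp downstream of AT1G34317 and had 7.67 RPM in ddb2-3, 0 in nrpd1a and 22.5 RPM in WT, a ddb2-3 to WT ratio of 0.341 (0.249 to 0.463). It was the region with the largest drop among those of at least 10 RPM in a library. The CG-hypo ATREP3 region chr2:5873001-5873175, 1463 bp downstream of AT2G13985, had 2.04 RPM in ddb2-3, 0 in nrpd1a and 6.26 RPM in WT, a ratio of 0.326 (0.172 to 0.593). Both fell to about the same share of WT, and both rest on 17 to 133 reads per library.

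The 2 ATREP10D regions printed above had the lowest ratios of the 13. The CHG-hypo region chr4:5701601-5701800, 323 bp upstream of AT4G05660, had 0.120 RPM in ddb2-3, which is 1 read, 0 in nrpd1a and 3.21 RPM in WT, a ratio of 0.0373 (0.000898 to 0.235). The CG-hypo region chr2:666688-666798, 243 bp upstream of AT2G02490, had 0.240 RPM in ddb2-3, 0 in nrpd1a and 4.40 RPM in WT, a ratio of 0.0545 (0.00627 to 0.218). Another place, at chr4:5281902-5282094, is listed as CG-hypo and, over its first 99 bp, as CHG-hypo. The CG-hypo stretch had 0.599 RPM in ddb2-3 and the CHG-hypo stretch 0.479 RPM, both without a read in nrpd1a and with 3.55 RPM in WT, and the 2 share their reads. In these ATREP10D regions the ddb2-3 library thus held 1 to 5 reads where WT held 19 to 26.

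The 4 higher regions lay between 0.169 and 1.52 RPM in WT and between 1.92 and 4.67 RPM in ddb2-3, and none was of a hypo class. ATREP7 at chr5:9616401-9616500 had 4.67 RPM in ddb2-3, 0 in nrpd1a and 1.52 RPM in WT, a ratio of 3.07 (1.46 to 7.21). ATREP13 at chr2:1281101-1281200, 554 bp upstream of CR88, the gene of a chloroplast HSP90 chaperone, had 4.19 RPM in ddb2-3, 0 in nrpd1a and 1.01 RPM in WT, a ratio of 4.13 (1.72 to 12). ATREP5 at chr3:16213801-16213900 had 3.59 RPM in ddb2-3, 0.727 in nrpd1a and 0.845 RPM in WT, a ratio of 4.25 (1.63 to 14.0). ATREP17 at chr5:10183301-10183400, the sole region of its family, had 1.92 RPM in ddb2-3, 0 in nrpd1a and 0.169 RPM in WT, where it rests on 1 read. None of the 4 reached 2 RPM in WT, so each ratio has a wide interval.

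Split by class, the CG-hypo regions stood apart. The 7 CG-hypo entries had a mean of 1.85 RPM in ddb2-3, 0.311 RPM in nrpd1a and 4.06 RPM in WT, a log2 ratio of summed levels for ddb2-3 over WT of -1.13 (-1.5 to -0.78). All 7 lay below WT and 4 of them (57.1%) at least 2-fold, against 22 of the 48 CG-hypo regions of the whole series (45.8%), whose log2 ratio was -0.70 (-0.82 to -0.59). All 24-base words of the median one of the 7 were unique. The ATREP4 region chr3:11288246-11288400, 1095 bp upstream of RIK, the gene of a KH-domain protein, is the one that differed least, with 9.35 RPM in ddb2-3, 0.727 in nrpd1a and 10.1 RPM in WT, a ratio of 0.921 (0.649 to 1.31). It also has the highest WT level of the class, and without it the ratio was -2.35. The CHG-hypo class of 24 regions had 8.99 RPM in ddb2-3 and 9.76 RPM in WT, a ratio of -0.12 (-0.22 to -0.016). Without its highest region the ratio was -0.075 (-0.19 to 0.036), which reaches WT. In this class 4 regions were at least 2-fold lower. Over the whole series 6.72% of the regions listed as CG-hypo or CHG-hypo were. That share pools both classes and includes the 22 of 48 CG-hypo regions, so it is not a share for CHG-hypo alone.

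The larger classes lay near WT. CHH-hyper, with 150 regions, had 20.7 RPM in ddb2-3 and 21.1 RPM in WT, a log2 ratio of -0.027 (-0.054 to 7.3e-05), and 2-fold differences were found in 4 regions above WT and 3 below. Over the hyper classes together, 2.33% of the ATREP regions near the centromeres were at least 2-fold higher and 1.74% lower. In the whole series these shares were 5.53% and 0.431%. CHH-hypo, with 69 regions, had 16.6 RPM in ddb2-3 and 16.5 RPM in WT, a ratio of 0.015 (-0.030 to 0.060), which becomes -0.032 without its highest region and -0.18 relative to the median region. CHG-hyper, with 29 regions, had 19.2 RPM in ddb2-3 and 20.1 RPM in WT, a ratio of -0.069 (-0.13 to -0.0051). Its sign rests on the ATREP15 region chr5:14216201-14216300, with 101 RPM in ddb2-3, 2.18 in nrpd1a and 128 RPM in WT, and without that region the ratio was 0.00046 (-0.071 to 0.072).

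By class, the ATREP regions near the centromeres can be set beside the same class elsewhere. Within CHG-hyper, the ATREP regions near the centromeres had a log2 ratio of -0.069, against 0.53 in the Gypsy regions and 0.15 in the remaining regions there. Within CHH-hyper the same sets had -0.027, against 0.38 and 0.23. The ATREP regions of the arms had 0.076 in CHG-hyper and -0.019 in CHH-hyper. In CG-hypo the 5 ATREP regions of the arms had 0.168 RPM in ddb2-3 and 3.42 RPM in WT, a ratio of -4.35 (-5.70 to -3.25), the 21 other regions of the arms had -1.53 (-1.75 to -1.31) with 11 at least 2-fold lower, the 10 regions near the centromeres that are neither ATREP nor Gypsy had -0.39 (-0.61 to -0.16) and the 5 Gypsy regions 0.83 (0.56 to 1.11). Of the regions listed as CG-hypo or CHG-hypo, 7 of 29 ATREP regions near the centromeres (24.1%) and 12 of 43 on the arms (27.9%) were at least 2-fold lower, against 1.07% of 467 other regions near the centromeres and 6.72% of all 744. Near the centromeres ATREP10D supplied 5 of the 7, including the overlapping pair that shares its reads. Without that family 2 of 22 (9.09%) were at least 2-fold lower.

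**Figure D2:**
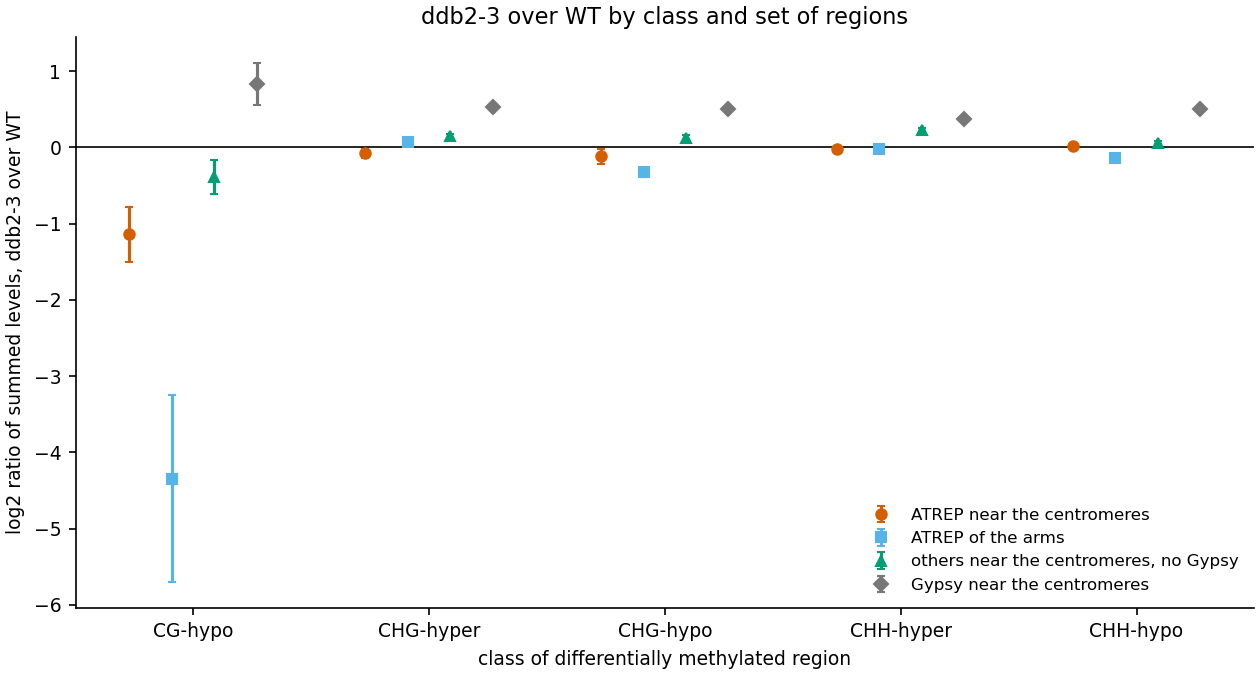
For each class on the horizontal axis, points give the log2 ratio of summed levels, ddb2-3 over WT, in the ATREP regions near the centromeres, the ATREP regions of the arms, the other regions near the centromeres without Gypsy, and the Gypsy regions near the centromeres; bars are 95% counting intervals, often narrower than the point. The ATREP sets lie at or below 0 except for CHG-hyper on the arms (0.076) and CHH-hypo near the centromeres (0.015), which lie below 0 as well once the 0.20 of the median region is subtracted, and the Gypsy set lies above 0 in all 5 classes.

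The families differed in level more than in their ddb2-3 to WT ratio. ATREP2 and ATREP5 had the highest mean levels, and ATREP10D the lowest among the families of at least 10 regions. ATREP3, the largest family, had 18.4 RPM in ddb2-3, 0.481 in nrpd1a and 18.3 RPM in WT, a ddb2-3 to WT log2 ratio of 0.0083 (-0.031 to 0.047). ATREP5 had 39.8, 0.409 and 39.9 RPM in the same order, a ratio of -0.0042 (-0.065 to 0.056), and 1 of its regions carries much of the family: chr1:16968101-16968200 had 260 RPM in ddb2-3, 0 in nrpd1a and 265 RPM in WT. In both families the ddb2-3 sum was within counting error of WT. Relative to the median region all families of at least 10 regions lay at -0.063 or below, ATREP3 and ATREP10D at -0.19, apart from ATREP1.

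ATREP2 was lower in ddb2-3. Its 14 regions had 36.5 RPM in ddb2-3, 0.830 in nrpd1a and 43.9 RPM in WT, a log2 ratio of -0.26 (-0.33 to -0.20), and 12 of the 14 lay below WT. The CHH-hyper region chr2:4025414-4025500 had 9.59 RPM in ddb2-3, 0.727 in nrpd1a and 15.7 RPM in WT, a ratio of 0.610 (0.446 to 0.831). The pair that shares 63 bases had 85.7 RPM in ddb2-3 and 99.3 RPM in WT at chr5:13231901-13232000 (0.863), and 69 RPM in ddb2-3 and 83.5 RPM in WT at chr1:12240701-12240800 (0.826). Both regions of the pair thus lay below WT, but since they hold the same run they may hold the same reads and are not separate measurements.

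The related ATREP2A followed, with 15.7 RPM in ddb2-3, 0.872 in nrpd1a and 18.0 RPM in WT over 10 regions, a log2 ratio of -0.20 (-0.31 to -0.079) and 8 regions below WT. Without its highest region the ratio was -0.12 (-0.26 to 0.024), which reaches WT. That region, the CHH-hypo chr1:12993501-12993600, had 46.6 RPM in ddb2-3, 2.18 in nrpd1a and 60.0 RPM in WT, a ratio of 0.776 (0.671 to 0.899). On the arms the ATREP2 sum was -0.056 (-0.086 to -0.026) over 65 regions and the ATREP2A sum -0.15 (-0.22 to -0.078) over 26. The ATREP2 intervals near the centromeres and on the arms did not meet, and those of ATREP2A did. Whether either family differs between the genotypes could not be tested with 1 library each.

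Among the families of at least 10 regions, ATREP1 and ATREP11 had intervals above WT. ATREP1 had 28.9 RPM in ddb2-3, 0.0519 in nrpd1a and 24.9 RPM in WT over 14 regions, a log2 ratio of 0.22 (0.14 to 0.30), which is 0.019 relative to the median region. Its highest region, the CHH-hypo chr5:14080101-14080200, 1734 bp downstream of AT5G35932, had 179 RPM in ddb2-3, 0 in nrpd1a and 146 RPM in WT, a ratio of 1.23 (1.13 to 1.34). ATREP11 had 11.7 RPM in ddb2-3, 0.229 in nrpd1a and 10.6 RPM in WT over 19 regions, a ratio of 0.14 (0.031 to 0.24), or -0.063 once the median region is set to 0. The family holds a strong region on each side. The CHH-hyper chr2:4966501-4966600, 528 bp downstream of AT2G12340, had 94.1 RPM in ddb2-3, 0 in nrpd1a and 57.8 RPM in WT, a ratio of 1.63 (1.43 to 1.85). The CHG-hyper chr2:1303001-1303100, 1060 bp downstream of AT2G04031, had 51.9 RPM in ddb2-3, 2.91 in nrpd1a and 77.8 RPM in WT, a ratio of 0.667 (0.584 to 0.762), and without it the family's log2 ratio was 0.45. On the arms ATREP1 had 0.016 (-0.019 to 0.052) and ATREP11 -0.11 (-0.17 to -0.054).

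ATREP10D combined a sum at WT level with the largest number of lower regions. Its 27 regions had 5.98 RPM in ddb2-3, 0.135 in nrpd1a and 5.94 RPM in WT, a log2 ratio of 0.0098 (-0.11 to 0.13). Of the 27 regions 6 (22.2%) were at least 2-fold lower. On the arms 1 of its 44 regions (2.27%) was, with a sum of -0.070 (-0.11 to -0.032). The 7 regions near the centromeres listed as CG-hypo or CHG-hypo had 1.10 RPM in ddb2-3, 0 in nrpd1a and 3.12 RPM in WT, a ratio of -1.51 (-1.96 to -1.07), with 5 at least 2-fold lower. The overlapping pair on chromosome 4 is among the 5, and its shared reads count in each. The 12 hyper regions of the family had 7.98 RPM in ddb2-3 and 7.96 RPM in WT, a ratio of 0.0029 (-0.15 to 0.16). At the other end, the CHG-hyper region chr2:4960217-4960269 had 9.23 RPM in ddb2-3, 0 in nrpd1a and 4.23 RPM in WT, a ratio of 2.18 (1.37 to 3.58) and just under 2-fold on the log2(RPM + 1) scale. All 24-base words of that region occur once in the genome. The highest region of the family in WT, the CHH-hyper chr1:16938001-16938100, 1592 bp upstream of AT1G44835, had 21.3 RPM in ddb2-3, 0 in nrpd1a and 28.6 RPM in WT, a ratio of 0.746 (0.601 to 0.927), so it lay below WT while the family sum did not. ATREP15 lay at -0.085 (-0.19 to 0.021) and at 0.23 (0.071 to 0.39) without its highest region, ATREP7 at -0.045 (-0.16 to 0.071) and ATREP13 at -0.00079 (-0.15 to 0.14). The highest ATREP7 region, the CHH-hyper chr5:10924242-10924300, 554 bp downstream of the pseudogene AT5G28897, had 62.4 RPM in ddb2-3, 0 in nrpd1a and 65.3 RPM in WT (ratio 0.956, 0.837 to 1.09). The highest ATREP13 region, the intergenic CHH-hypo chr4:6505701-6505800, had 47.9 RPM in ddb2-3, 0 in nrpd1a and 47.2 RPM in WT (1.02, 0.870 to 1.19). Both intervals include WT level.

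**Figure D3:**
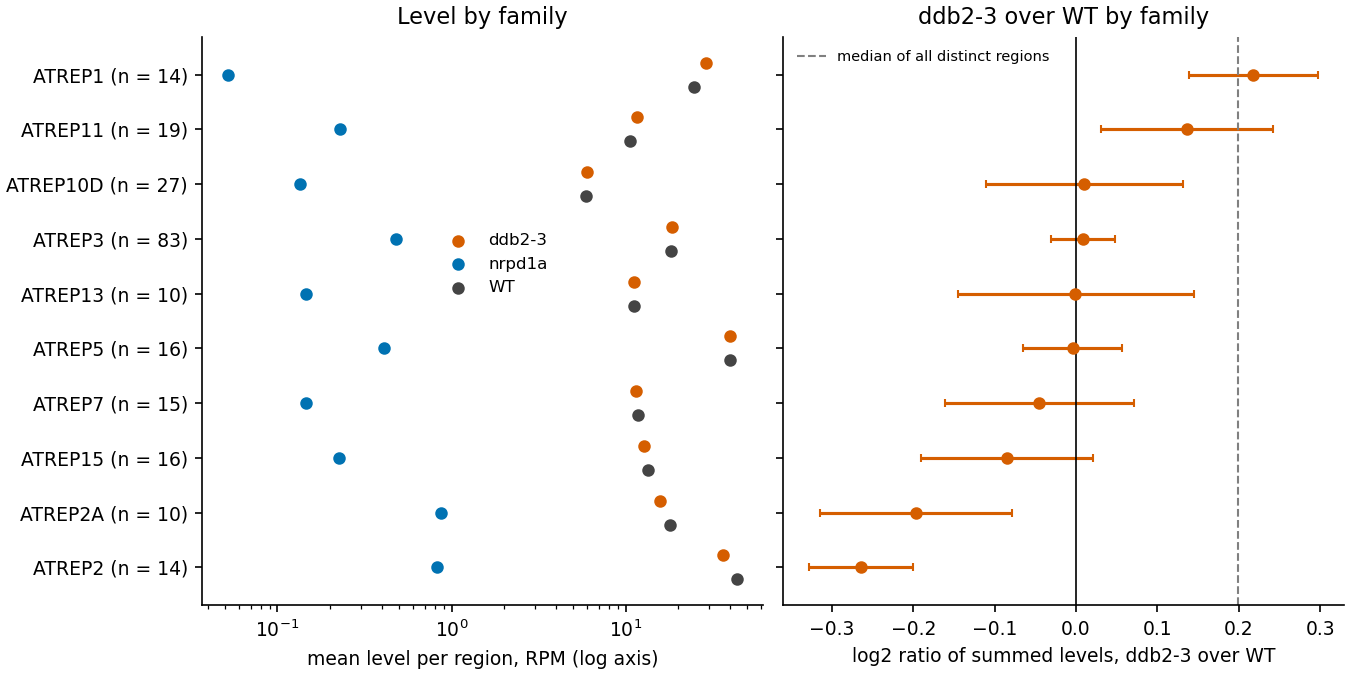
Families of at least 10 regions are listed from the highest to the lowest ddb2-3 to WT ratio. The left panel gives the mean level per region in ddb2-3, nrpd1a and WT in RPM on a log axis, and the right panel the log2 ratio of summed levels, ddb2-3 over WT, with 95% counting intervals and a dashed line at 0.20, the median of all regions with reads in both libraries. ATREP2 (-0.26) and ATREP2A (-0.20) lie at the bottom and ATREP1 (0.22) at the top, and nrpd1a lies below both other libraries in every family.

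No strongly covered region differed 2-fold between ddb2-3 and WT, but single ones did differ beyond counting error. In the 24 whose WT level reached 50 RPM none was 2-fold higher or lower, and the binomial test called 4 higher and 10 lower. Over all regions it called 19.3% higher and 7.03% lower, but their median WT level was 6.93 RPM. The test calls smaller differences where reads are many, so these shares cannot be set beside the 24. No share for equally covered regions is given here. The 6 regions of highest WT level held 18.6% of the summed WT level and the 27 highest 47.8%. Among them the ATREP1 region (ratio 1.23) and the ATREP15 region (0.786, 0.712 to 0.868) had intervals that left out WT level, and the ATREP5 region (0.979, 0.917 to 1.05) did not. They also included ATREP8 at chr5:12660301-12660500, with 110 RPM in ddb2-3, 0 in nrpd1a and 111 RPM in WT, and ATREP3 at chr4:1001301-1001400, with 114, 0 and 105 RPM in the same order. The ATREP8 ratio was 0.992 (0.897 to 1.10). The ATREP3 region lies 938 bp downstream of GH9B13, the gene of a family 9 glycosyl hydrolase, and its ratio was 1.09 (0.980 to 1.20). Neither could be told from WT at this depth.

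Among the 134 regions with at least 8.54 RPM in ddb2-3 or WT, the ATREP10D region at chr2:4960217-4960269 (2.18) and the ATREP12 region (0.341) described above had the highest and the lowest ratio, and ATREP3 regions were among the next on both sides. The CHH-hypo chr1:16905301-16905400 had 10.2 RPM in ddb2-3, 0 in nrpd1a and 5.41 RPM in WT (ratio 1.88, 1.24 to 2.92), and the CHH-hypo chr2:2629101-2629200 had 10.7, 0.727 and 5.92 RPM (1.8, 1.21 to 2.75). The CHH-hyper chr1:13059301-13059400 had 6.95 RPM in ddb2-3, 0 in nrpd1a and 14.2 RPM in WT (0.489, 0.344 to 0.692). The CHH-hyper chr1:13016101-13016200, 1494 bp downstream of the pseudogene AT1G35390, had 18.8 RPM in ddb2-3, 0 in nrpd1a and 27.7 RPM in WT (0.678, 0.541 to 0.849). The CHH-hyper chr5:9558001-9558100, 407 bp downstream of NHX1, the gene of a vacuolar sodium/proton antiporter, had 6.23 RPM in ddb2-3, 0 in nrpd1a and 9.81 RPM in WT (0.635, 0.428 to 0.940). ATREP9 at chr4:2723901-2724000, 567 bp downstream of AT4G05115, was on the higher side, with 11.1 RPM in ddb2-3, 0 in nrpd1a and 6.26 RPM in WT (1.78, 1.20 to 2.68). So ATREP3 as a family lay at WT level while its regions spread to both sides of it.

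Regions of the same element often differed widely in level. Of the 45 elements with at least 2 regions, which hold 99 of the 268, the highest region had a median of 2.84 times the WT level of the lowest, with a range of 1.0 to 46.5 times. The ATREP5 element of chromosome 1 had 6.95, 20.2 and 260 RPM in ddb2-3, and 7.27, 25.2 and 265 RPM in WT, in 3 regions within 2000 bp. An ATREP3 element of chromosome 4 had 17.4, 36.8, 114 and 1.56 RPM in ddb2-3 along its length, and 14.9, 40.8, 105 and 3.38 RPM in WT. The ddb2-3 levels followed the WT profile along both elements. In 18 of the 45 elements some regions lay above WT and others below, as at chr5:9590801-9590900 with 19.9 RPM in ddb2-3 and 12.9 RPM in WT (ratio 1.55, 1.17 to 2.06) and the adjoining chr5:9590901-9591000 with 3.83 RPM in ddb2-3 and 6.43 RPM in WT. Any difference in sign counts here, however small, and 47.8% of the 268 regions lay above WT. Mixed signs are therefore common even without a particular split, and no share for elements elsewhere is given here. Hyper and hypo regions stood together in 21 of the 45 elements.

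**Figure D4:**
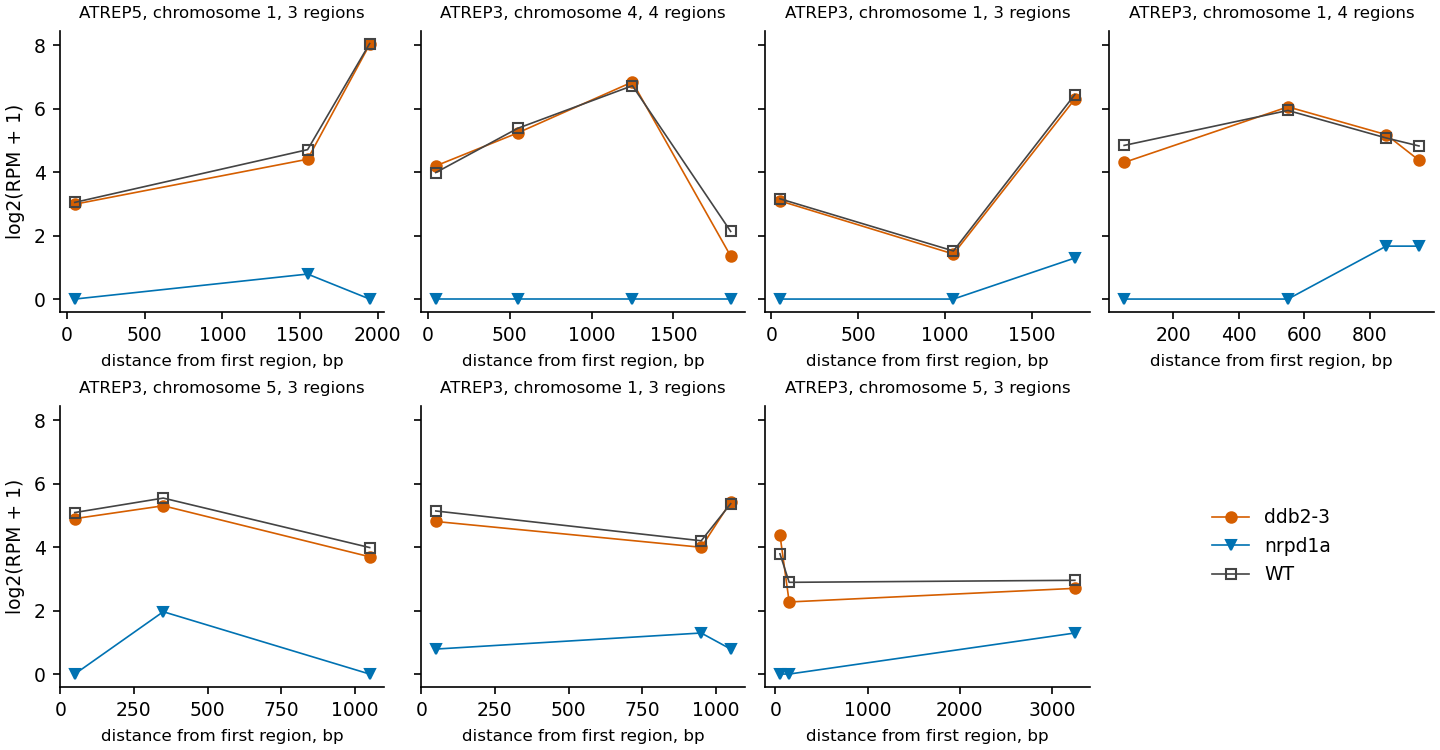
Each panel is 1 of the 7 elements with at least 3 regions, with the distance of each region's midpoint from the start of the first region in bp on the horizontal axis and log2(RPM + 1) on the vertical axis, in ddb2-3, nrpd1a and WT; lines join the regions of a library. In most panels the ddb2-3 and WT profiles run close together, and in WT the highest region has 2.0 to 46.5 times the level of the lowest. In the ATREP3 element of chromosome 5 that spans 3300 bp, ddb2-3 ranges from 3.83 to 19.9 RPM and WT from 6.43 to 12.9 RPM. The nrpd1a profile stays below both.

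How often the sequence recurs in the genome went with the level. A 24-base word was shared with another of the 268 regions by 120 of them, and 17 shared at least 50% of their words. The 45 regions with under 10% unique words had 22.6 RPM in ddb2-3 and 22.8 RPM in WT, and the 58 with at least 90% had 6.11 RPM in ddb2-3 and 5.77 RPM in WT. Across the 268 regions the WT level on the log2(RPM + 1) scale and the share of unique words had a Spearman rho of -0.48 and a Pearson r of -0.47. These points share library, family and sequence, and a read counted at each of its copies would raise repeated regions. Whether it does so here was not tested. The ddb2-3 to WT ratio had a rho of 0.12 with the same share, and the sum ratio was -0.014 (-0.061 to 0.034) in the repeated regions and 0.083 (0.00022 to 0.17) in the unique ones.

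In nrpd1a nearly all siRNA signal over these Helitrons was missing. The summed level was 1.87% of WT (1.56 to 2.23). No read was found in 191 of the 268 regions (71.3%), where 77.1% of all regions had none, 51 had 1 read, and the highest count was 6. By size 249 regions were at least 2-fold lower, against 92.9% of all regions, and none was 2-fold higher, against 0.246% of all regions. The binomial test called 202 lower, against 71.2% of all regions. With nrpd1a counts under 3 reads raised to 3, worth 2.18 RPM, 161 were at least 2-fold lower. Where WT was high enough for 3 nrpd1a reads to lie under 10% of it, 64 of 65 regions were under 10%, against 96.6% of all such regions. The largest floor bound was that of the ATREP5 region chr1:16968101-16968200, at least 122-fold lower in nrpd1a than in WT. The 1.87% was near the 1.65% of the ATREP regions of the arms and the 1.61% of Gypsy near the centromeres. It was below the 8.91% (8.54 to 9.30) of the other regions there and the 5.12% (4.01 to 6.43) of those with a HELITRON name. By count of regions the order was the reverse. No nrpd1a read was found in 82.5% of those other regions and in 76.7% of the HELITRON-named ones, against the 71.3% above.

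The share of the WT level left in nrpd1a was lowest where WT was highest. Regions under 5 RPM in WT kept 5.88% (3.63 to 9.02) of the WT level, those of 5 to under 20 RPM 3.01%, those of 20 to under 50 RPM 2.08% and those of 50 RPM or more 0.762% (0.483 to 1.14). WT enters both the grouping and the share, so part of this order is built in, and that part was not measured. ATREP10D at chr2:1903301-1903400, 476 bp upstream of AT2G05230, had 18.9 RPM in ddb2-3, 3.63 in nrpd1a and 14.4 RPM in WT. ATREP3 at chr5:9442601-9442800, in a coding exon of AT5G26840, had 5.87 RPM in ddb2-3, 3.63 in nrpd1a and 3.89 RPM in WT, so nrpd1a lay close to WT there. ATREP3 at chr5:9963801-9964100 had 38.6 RPM in ddb2-3, 2.91 in nrpd1a and 45.8 RPM in WT. The sole region of the 268 with nrpd1a at or above WT, against 0.714% of all regions, was the CG-hypo and CHG-hypo ATREP3 region chr5:10134601-10134700, which had 0.120 RPM in ddb2-3, 1.45 in nrpd1a and 1.35 RPM in WT, that is 1, 2 and 8 reads. Over the families of at least 10 regions the nrpd1a share of WT ran from 0.209% in ATREP1, which rests on 1 read, to 4.83% in ATREP2A.

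**Figure D5:**
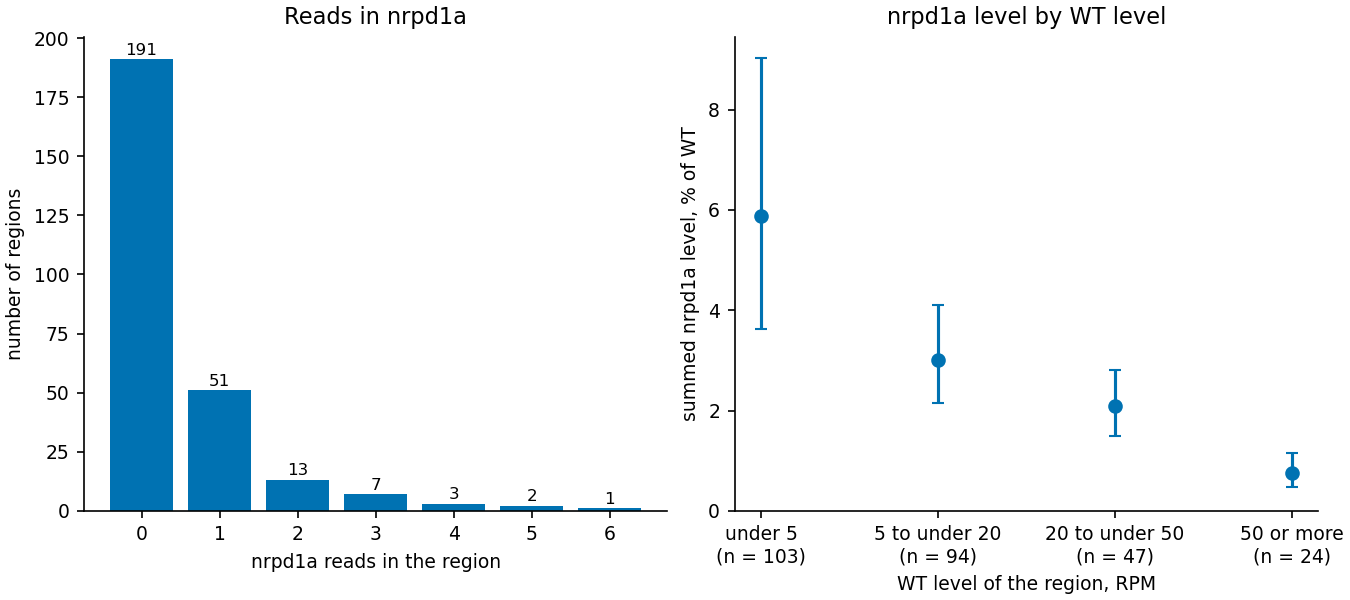
The left panel counts the 268 regions by their number of nrpd1a reads, and the right panel gives the summed nrpd1a level as a percentage of WT in 4 groups of regions by WT level in RPM, with 95% counting intervals. No read was found in 191 regions, and the share was 5.88% in the group under 5 RPM in WT and 0.762% in the group of 50 RPM or more.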

How the data were processed

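The deposited tables give RPM per region, 24-nt small RNA reads scaled to library size, which the authors summed over each region; the length class and the region class come from the tables' names. The submitters' processing notes name Bowtie, bedtools, CASAVA 1.8.2 and the build TAIR10. How reads with several genomic places were treated, what the RPM denominator was and which mismatches were allowed is not given in the sources used here. In the deposited RPM, 100% of values were whole reads within 0.1 read (largest deviation 0.00418), which gives normalising totals of 8345930 reads in ddb2-3, 1376240 in nrpd1a and 5913670 in WT. Sums were compared as log2 ratios with exact Clopper-Pearson intervals on reads, too narrow where regions share reads. Single regions were compared as log2(RPM + 1) differences, which understate low levels, with a size limit of 2-fold. Only regions reaching 1 RPM in a library were counted. A level of 0 was set to 3 reads in fold bounds. A family is the listed repeat name and an element the listed repeat identifier. Gypsy means names with ATHILA, ATGP or ATLANTYS.

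Sequences, unique 24-base words (either strand) and genes came from RefSeq's copy of TAIR10 (TAIR10.1), whose 5 nuclear chromosomes have the same lengths in its annotation and which holds every region, and 334 of the 350 genes listed in the files overlap their region in it. Motif shares count both strands. The 2-fold rule and the exact binomial rule were tested on simulated reads. Members, lists and families were chosen with earlier results of these data known. Named regions were the 6 of highest WT level, the 6 of highest and the 6 of lowest ddb2-3 to WT ratio among those of at least 8.54 RPM, the 5 of highest nrpd1a level, the 5 with most WT reads and no nrpd1a read, CG-class regions of at least 5 RPM, and the highest of each family, 28 in all, of which 1 is not reported here. The printed sequences of chr5:13231901-13232000 and both ATREP10D regions are of regions named after their values were seen, as are the adjoining regions of elements. Analyses used Python 3.11.15, numpy 2.4.6, scipy 1.17.1 and pandas 2.3.3.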

Additional observations from a re-analysis of the deposited data

How the results depend on the processing

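No paired analysis was possible because each genotype had 1 library, and for the same reason no replicate could be left out. The ddb2-3 sum ratio of -0.029 became -0.23 with scaling to the median region, -0.0047 within 2 Mb and 0.083 over the 58 regions with at least 90% unique words; it kept its direction and size without the highest region, the highest 1%, overlaps, regions in 2 classes or GA runs. The nrpd1a sum (-5.74) became -1.55 with scaling to the median region, which rests on 1027 regions with nrpd1a reads. The 4 higher regions became 9 and 1 with pseudocounts of 0.5 and 2 RPM, 0 at 10 RPM or more, 25 by the binomial test and 1 within 2 Mb. The 13 lower ones became 8 with a pseudocount of 2 RPM, 1 at 10 RPM or more, 31 by the binomial test and 6 within 2 Mb. The 249 lower in nrpd1a became 123 at 10 RPM or more, 116 within 2 Mb and 161 with the floor. The median of -0.041 became -0.24 with scaling and 0.068 within 2 Mb. Windows and minimums leave fewer regions; other causes were not tested. Among families, scaling turned ATREP11 to -0.063 and both ATREP3 and ATREP10D to -0.19. Without its highest region ATREP15 turned to 0.23 (0.071 to 0.39). ATREP3 and ATREP5, which lay near 0, turned to -0.00015 and 0.014 in the same way. Among classes, CHG-hyper turned to 0.00046 without its highest region. CHH-hypo turned to -0.032 without its highest region and to -0.18 with scaling. Of 28 named regions 1 moved past 2-fold with scaling, ATREP3 at chr1:13059301-13059400 (-1.13). A region with 0 nrpd1a reads can hold up to 2.18 RPM by the floor of 3 reads. The loss that can be seen in weakly covered regions is therefore limited by the RPM value of a nrpd1a read.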
